A study of Bos taurus with 14 samples.

Results

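The miR-181 family is a group of related miRNAs known for their part in lymphocyte development. Its members in the deposited tables were bta-miR-181a, bta-miR-181b, bta-miR-181c and bta-miR-181d, taken by their mature names. These were 4 of 1030 mature miRNA names in the count table, and they filled 6 of its 1207 entries. A count was present in any heifer for 614 mature miRNAs, 341 passed the filter on low values, and all 4 members were among the 341.

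PWBC (peripheral white blood cells) were drawn at weaning from 14 Angus-Simmental crossbred heifers, before any of them was bred. FH were the 7 heifers that later conceived to artificial insemination (AI), and SFH were the 7 that had no conceptus at the pregnancy check, although bulls had followed the AI. Members of both groups had been picked to be alike in age and body weight, all later went through the same estrus synchronization, and each gave 1 small RNA library. PWBC are a mixture of lymphocytes, monocytes and granulocytes, so fewer cells of a type and less miRNA per cell cannot be told apart in these bulk samples.

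A miRNA guides a silencing complex to messenger RNAs that pair with its seed, the short stretch near its 5′ end. The miR-181 paralogues share their seed and differ elsewhere at only a few positions, with miR-181a closest to miR-181c and miR-181b closest to miR-181d. In the thymus miR-181a is known to raise the sensitivity of developing T cells to antigen by lowering several phosphatases of the T cell receptor pathway, and the family has also been tied to B cell development. Because the paralogues are so alike, a read with an error or a trimmed end could be counted on a neighbouring member, and the levels of the scarce members are uncertain to that extent.

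The libraries held between 1754971 and 5468341 counts on mature miRNAs, with a median of 3319368 in FH and 2663375 in SFH. A count of 0 therefore allowed a level of up to 3 counts, or 0.549 to 1.71 CPM, and this limit covers counting error only. CPM, the deposited unit, is the count of a miRNA scaled to a total of 1000000 counts over the 341 retained miRNAs of a heifer. The lymphocyte markers miR-150 and miR-342 were abundant, with a median sum of 80964 CPM in FH and 78006 CPM in SFH, and the myeloid marker miR-223 had a median of 17457 CPM in FH and 19700 CPM in SFH. The erythroid list had a median sum of 2166 CPM in FH and 2416 CPM in SFH with 2 of 3 markers retained and miR-144 without a count, while 1 of 3 muscle markers and 1 of 4 liver and epithelial markers were retained.

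Several mature miRNAs are made from more than 1 precursor, and the count table holds an entry for each. bta-miR-181a and bta-miR-181b had 2 entries each, and bta-miR-181c and bta-miR-181d had 1. The entries do not name their precursor. RefSeq annotates ARS-UCD2.0, a later assembly than the files use, and there 6 precursor genes of the family lie in neighbouring pairs. MIR181B-1 neighbours MIR181A-1 outside any annotated gene. MIR181A-2 neighbours MIR181B-2 within NR6A1, a nuclear receptor gene, and the long noncoding RNA LOC100848407. MIR181D neighbours MIR181C within NANOS3, a gene of germ cell maintenance. The paralogues a and b thus share a pair of loci, and c and d share another.

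The entries of bta-miR-181a were equal in 12 of 14 heifers. In SFH heifer 17 they held 40865 and 40867 counts, and in SFH heifer 21 they held 41767 and 41761 counts. The 2 loci of miR-181a were therefore not separated by these entries. For bta-miR-181b the second entry was higher in 14 of 14 heifers, by 2.97% to 13.7% with a median of 7.09%. This excess had a median of 6.92% in FH (4.82% to 11.0%) and 7.43% in SFH (2.97% to 13.7%), and the groups overlapped. Over all heifers the entries of bta-miR-181b summed to 78738 and 84921 counts. Among the 58 retained miRNAs with several entries, 13 had entries of equal total, 36 had a highest entry no more than 1.1 times the lowest, and 12 had a highest entry over 2 times the lowest. The entry with the higher total was used below for both miRNAs.

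bta-miR-181a made up most of the family in every heifer. Its level had a rank of 14 among the 341 retained miRNAs by mean CPM, while bta-miR-181b ranked 57, bta-miR-181d 175 and bta-miR-181c 198. All members together took 1.29% to 2.94% of the retained counts of a heifer. bta-miR-181a gave 87.2% to 92.0% of the family with a median of 89.5%, and bta-miR-181b gave 7.47% to 12.3% with a median of 9.92%. The highest share was 0.642% for bta-miR-181d and 0.374% for bta-miR-181c.

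The upper part of this order was the same in all animals. bta-miR-181a was 8.93-fold above bta-miR-181b, a mean log2 ratio of 3.16 ± 0.28 (SD, n = 14), with the same order in 14 of 14 heifers (exact two-sided sign-flip permutation test, p = 0.00012207, the smallest value it can give). The ratio of their counts ran from 7.17 to 12.3 in FH (median 8.21) and from 7.06 to 11.7 in SFH (median 9.48). bta-miR-181b was 43.6-fold above bta-miR-181d, a mean log2 ratio of 5.45 ± 1.50 (SD, n = 14), again in 14 of 14 heifers with the same exact permutation p of 0.00012207. With the entries of bta-miR-181b summed in place of the higher, this log2 ratio was 6.39, or 84.1-fold. A read counted in both entries enters that sum more than once, so the summed ratio can be too high. The scarce members were not ordered beyond their spread. bta-miR-181d was above bta-miR-181c in 9 of 14 heifers, with a mean log2 ratio of 1.10 ± 2.54 (SD, n = 14; exact permutation p = 0.129). The reverse order was seen in FH heifers 22, 29 and 31 and in SFH heifers 26 and 32. Without FH heifer 29, which had almost no bta-miR-181d, the log2 ratio was 1.42 and the exact permutation p was 0.0234.

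The mean level of every member was higher in SFH than in FH, and none of these differences passed the test. Of the 341 miRNAs tested with edgeR, 13 passed the study's thresholds (unadjusted p-value no higher than 0.05, log2 fold change of 0.5 or more in either direction), which is 3.81% of all tested, and 0 of the 4 members were among them. At an unadjusted p-value of at most 0.05 alone the numbers were 20 of 341, or 5.87%, and 0 of 4 members. After Benjamini-Hochberg adjustment over all 341, edgeR called 0 miRNAs, and DESeq2 called 2. The median log2 fold change of the members was 0.44, beside 0.06 over all miRNAs tested. Without regard to sign the median over all tested was 0.32, near the 0.33 of bta-miR-181a and the 0.32 of bta-miR-181b.

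bta-miR-181a, the major paralogue, lay at 11417 CPM in the lowest FH heifer, at a median of 14109 CPM and at 27012 CPM in the highest. In SFH the lowest, median and highest levels were 11554, 21955 and 24299 CPM. Heifer 31 was the highest animal of the study although it belonged to FH, the other 6 FH heifers lay at or below 15747 CPM, and 5 of 7 SFH heifers lay at or above 20970 CPM. The mean was 15509 ± 5267 CPM for FH and 20291 ± 4856 CPM for SFH (SD, n = 7 each). The log2 fold change of SFH relative to FH was 0.33 ± 0.19 (SE; 95% interval -0.08 to 0.73; edgeR adjusted p = 0.890), and the exact two-sided permutation p was 0.131. The groups overlapped, but 6 of 7 SFH heifers were above the FH median.

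The p-value of bta-miR-181a moved with single animals, while the thresholds were not passed without any of them. Without FH heifer 31 the log2 fold change was 0.49, with an edgeR p of 0.0115 (adjusted 0.523). The difference between the mean log2 levels was then 0.46, with an exact permutation p of 0.0251. Without SFH heifer 28, the lowest SFH animal, the log2 fold change was 0.42, with an edgeR p of 0.0326 (adjusted 0.839). The difference between the mean log2 levels was then 0.45, with an exact permutation p of 0.0344. None of these values reached the fold change threshold. Leaving out any other heifer gave exact permutation p-values of 0.111 to 0.245.

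bta-miR-181b, which shares its loci with miR-181a, had a lowest level of 1223 CPM, a median of 1968 CPM and a highest level of 2196 CPM in FH. In SFH these values were 1219, 2396 and 3284 CPM. SFH heifers 17, 23, 26 and 30 were above every FH heifer, while SFH heifers 21 and 28 lay among the lowest of all animals. Heifer 21 was within the FH range at 1346 CPM, and heifer 28 was only just below the lowest FH heifer. Means were 1752 ± 380 CPM for FH and 2281 ± 800 CPM for SFH (SD, n = 7 each). The log2 fold change was 0.32 ± 0.21 (SE; 95% interval -0.13 to 0.76; edgeR adjusted p = 0.898). The difference between the mean log2 levels was 0.26, with an exact permutation p of 0.282.

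**Figure D1:**
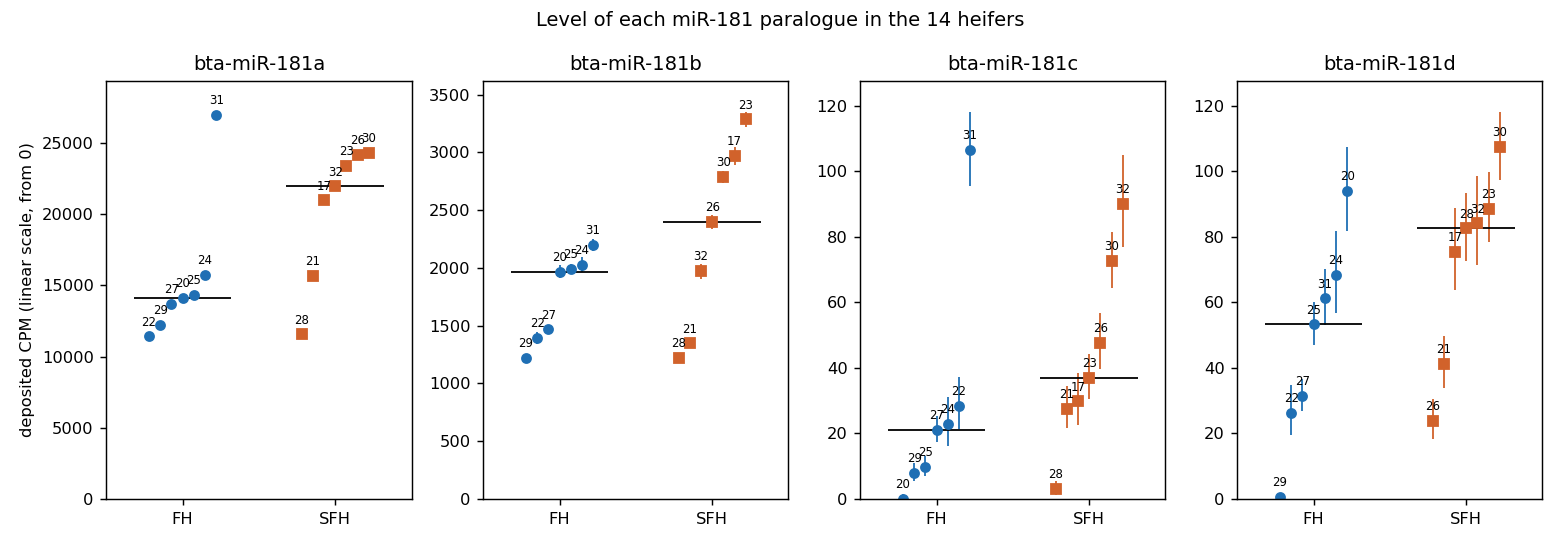
Deposited CPM of each miR-181 member (vertical axes, linear from 0) in FH and SFH, with 1 point per heifer labelled by heifer number, a two-sided 95% Poisson interval of its count as the error bar (for the count of 0 it ends at 1.64 CPM, above the 3-count limit of 1.33 CPM), and the group median as a black line. FH heifer 31 was the highest animal for bta-miR-181a at 27012 CPM, and 4 SFH heifers were above every FH heifer for bta-miR-181b.

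bta-miR-181c was scarce and the most variable of the paralogues. FH heifer 20 had 0 counts, which by the limit of 3 counts allows up to 1.33 CPM, while the FH median was 21.0 CPM and FH heifer 31 reached 106 CPM from 353 counts. In SFH the lowest, median and highest levels were 2.93, 36.8 and 90.1 CPM, and the lowest rested on 9 counts in heifer 28. The groups overlapped, with FH heifer 31 above every SFH heifer and FH heifer 20 below them all. FH heifer 22, the next highest of FH, lay at 28.5 CPM, and 6 of 7 SFH heifers were above the FH median. For FH the mean was 28.1 ± 35.9 CPM, and for SFH it was 43.9 ± 29.4 CPM (SD, n = 7 each). The log2 fold change of 0.62 ± 0.82 had a 95% interval of -1.09 to 2.32 (edgeR adjusted p = 0.947). The difference between the mean log2 levels was larger, at 1.22 with an exact permutation p of 0.297, and it was 0.42 without FH heifer 20. The edgeR log2 fold change also moved with single heifers. It was 1.48 without FH heifer 31, 0.39 without FH heifer 20 and 0.33 without SFH heifer 32.

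bta-miR-181d, which lies beside miR-181c in the annotation, was at 0.666 CPM in FH heifer 29 from 3 counts, at a median of 53.3 CPM in FH and at 94.0 CPM in FH heifer 20. In SFH its lowest, median and highest levels were 23.8, 82.6 and 107 CPM. Only SFH heifer 30 was above every FH heifer, and 5 of 7 SFH heifers were above the FH median. FH had a mean of 47.9 ± 30.9 CPM and SFH had 71.9 ± 29.0 CPM (SD, n = 7 each). The log2 fold change of 0.56 ± 0.59 had a 95% interval of -0.68 to 1.80 (edgeR adjusted p = 0.947), and it was 0.33 without FH heifer 29. The exact permutation p of 0.211 belongs to a larger value, the difference of 1.08 between the mean log2 levels, and limma-voom gave 1.33.

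The precision of the fold changes followed the abundance of the paralogues. The biological coefficient of variation of edgeR was 0.290 for bta-miR-181a and 0.316 for bta-miR-181b, below the median of 0.660 over all miRNAs tested, and it was 0.787 for bta-miR-181d and 1.03 for bta-miR-181c. Standard errors were 0.19 and 0.21 for the abundant members beside a median of 0.48 over all tested. Counting error made up 0.0223% of the variance of CPM over the 14 heifers for bta-miR-181a, 0.173% for bta-miR-181b, 1.30% for bta-miR-181c and 2.34% for bta-miR-181d. These shares cover the sampling of reads alone, and PCR and other library steps were not measured.

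**Figure D2:**
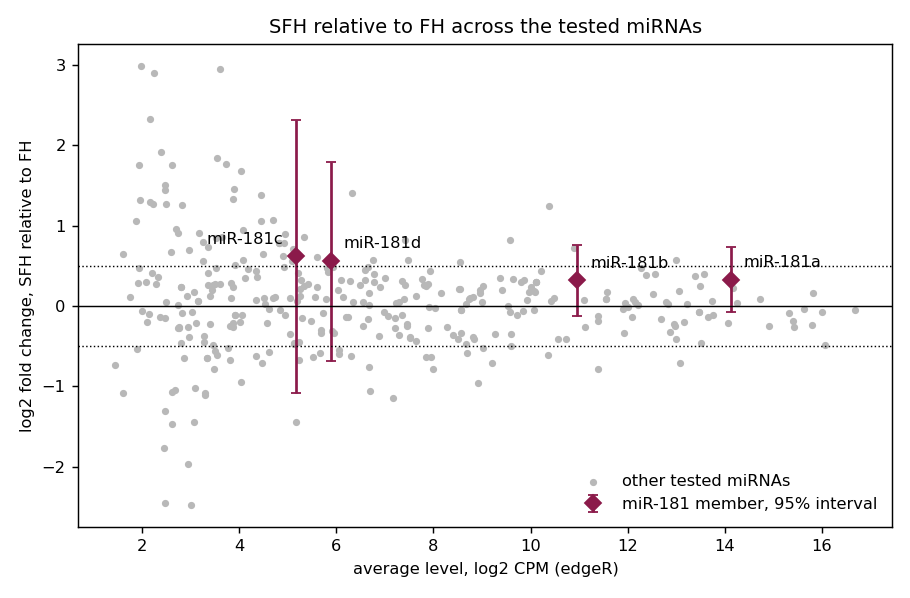
Log2 fold change of SFH relative to FH (vertical axis) against average log2 CPM (horizontal axis) for the 341 miRNAs tested with edgeR, with the miR-181 members as diamonds with 95% intervals and dotted lines at the fold change threshold of 0.5. All 4 intervals include 0, and those of bta-miR-181c and bta-miR-181d are the widest.

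The family total had to follow bta-miR-181a, which gave 87.2% to 92.0% of it, and is listed as a description. It was 12863 to 29375 CPM in FH, with a median of 16171 CPM, and 12858 to 27264 CPM in SFH, with a median of 24100 CPM. SFH heifer 28 and FH heifer 22 had the lowest totals, FH heifer 31 had the highest, and 6 of 7 SFH heifers were above the FH median.

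Across the 14 heifers bta-miR-181a varied together with bta-miR-181b. Its relation with bta-miR-181c also passed the test but lost the call under some alternatives, and the other pairs did not pass. On log2(TMM-normalized CPM + 0.5), bta-miR-181a and bta-miR-181b had a Pearson's r of 0.78 (permutation p = 0.00106, adjusted over 6 pairs 0.00636) and a Spearman's rho of 0.75 (permutation p = 0.00269, adjusted 0.00807). Without FH heifer 31 and SFH heifer 30, the 2 animals most distant from the median level of bta-miR-181a, r was 0.79. bta-miR-181a and bta-miR-181c had an r of 0.65 (permutation p = 0.00711, adjusted 0.0213) and a rho of 0.86 (permutation p = 0.00019, adjusted 0.00114), and r was 0.54 without the same heifers. FH heifer 20, with its count of 0, lay far below the other animals in the latter relation, and r was 0.78 without it. On the deposited CPM without logs, r was 0.83 for bta-miR-181a with bta-miR-181c (permutation p adjusted 0.00048). On that scale it was 0.77 for bta-miR-181a with bta-miR-181b (permutation p adjusted 0.00429). Which of these pairs was tighter thus depended on the scale and on the measure. With group means removed, r of bta-miR-181a and bta-miR-181c was 0.61 (permutation p adjusted 0.0744). The adjusted p of this pair was 0.0702 without FH heifer 31, 0.0634 without SFH heifer 28 and 0.0561 without SFH heifer 30.

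The remaining pairs were looser. bta-miR-181b and bta-miR-181d, the closest in sequence of these, had an r of 0.37 (permutation p adjusted 0.366), bta-miR-181b and bta-miR-181c 0.34 (0.366) and bta-miR-181a and bta-miR-181d 0.21 (0.625). bta-miR-181c and bta-miR-181d, whose precursor genes are neighbours, had an r of 0.03 (permutation p adjusted 0.889) and a rho of 0.10. Their animals at the extremes went apart: FH heifer 20 had no count of bta-miR-181c and the highest FH level of bta-miR-181d, and SFH heifer 28 had the lowest SFH level of bta-miR-181c beside 82.6 CPM of bta-miR-181d. Without those 2 heifers, which are the most distant from its median level, r was 0.55.

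**Figure D3:**
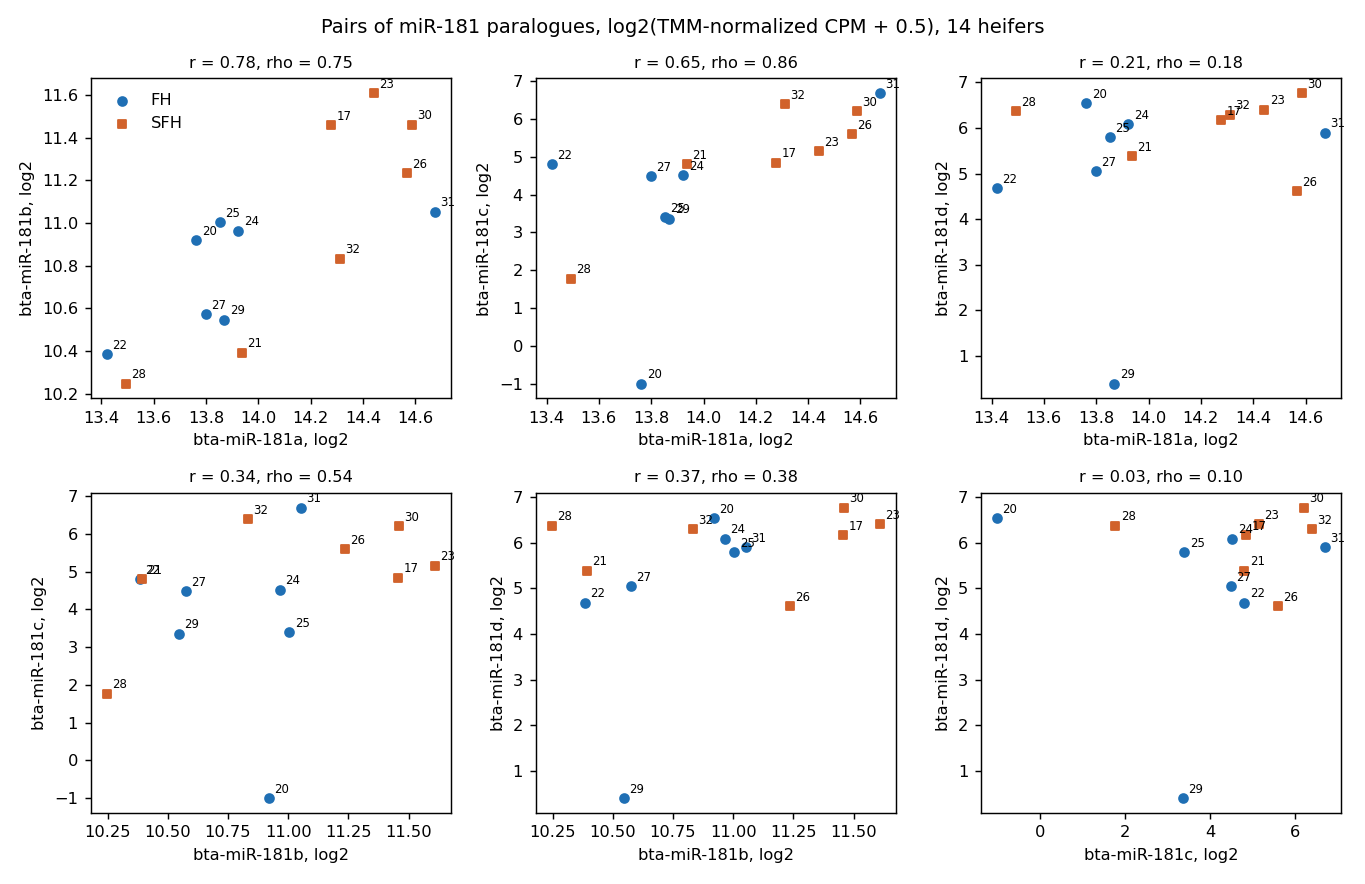
Each panel plots a pair of miR-181 members on log2(TMM-normalized CPM + 0.5), with 1 point per heifer (blue circles FH, orange squares SFH, labelled by heifer number) and Pearson's r and Spearman's rho over 14 heifers above it. bta-miR-181a and bta-miR-181b form the tightest pair by r at 0.78, and heifers 20 and 29 lie far from the rest in the panels with bta-miR-181c and bta-miR-181d.

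Within the groups the relations were less certain. For bta-miR-181a and bta-miR-181b, r was 0.66 in FH (n = 7, exact permutation p = 0.0710, adjusted 0.310) and 0.86 in SFH (n = 7, exact permutation p = 0.0117, adjusted 0.0482). For bta-miR-181a and bta-miR-181c, r was 0.45 in FH (n = 7, exact permutation p = 0.283, adjusted 0.566) and 0.88 in SFH (n = 7, exact permutation p = 0.0161, adjusted 0.0482). In SFH r was 0.29 for either pair without heifers 28 and 21. Without heifers 31 and 22, r in FH was 0.16 for bta-miR-181a with bta-miR-181b but 0.68 for bta-miR-181a with bta-miR-181c. The heifers left out are those most distant from the group median of bta-miR-181a. Leaving them out narrows its range and keeps few heifers, so these values do not decide whether the relations rest on them. The difference between the groups in r was not tested.

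bta-miR-181a also had a gap in its levels: 8 heifers lay between 11417 and 15747 CPM, 6 lay between 20970 and 27012 CPM, and none lay between. The lower 8 were 6 FH and 2 SFH heifers and the upper 6 were 1 FH and 5 SFH heifers. Among the lower 8, r of bta-miR-181a was 0.55 with bta-miR-181b (exact permutation p = 0.171) and 0.15 with bta-miR-181c (exact permutation p = 0.748). Among the upper 6 the values were -0.01 (exact permutation p = 0.988) and 0.54 (exact permutation p = 0.250). This split was made after the values were seen and on bta-miR-181a itself, which narrows its range and lowers r, and the sets are small, so these values say nothing on whether the pooled relations hold.

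Against the other miRNAs, the tie of bta-miR-181a to bta-miR-181b was among the strong ones. All 57970 pairs of the 341 miRNAs had a median r of 0.01, with 5% of them below -0.50 and 5% above 0.53. An r as high as that of bta-miR-181a with bta-miR-181b was reached by 0.364% of all pairs, and an r as high as that of bta-miR-181a with bta-miR-181c by 1.77%. For bta-miR-181c with bta-miR-181d it was 47.2%. The median r of the 6 pairs within the family was 0.35. These shares are descriptions, since all pairs come from the same 14 libraries. Pairs of miRNAs as abundant as bta-miR-181a and bta-miR-181b were not compared separately.

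**Figure D4:**
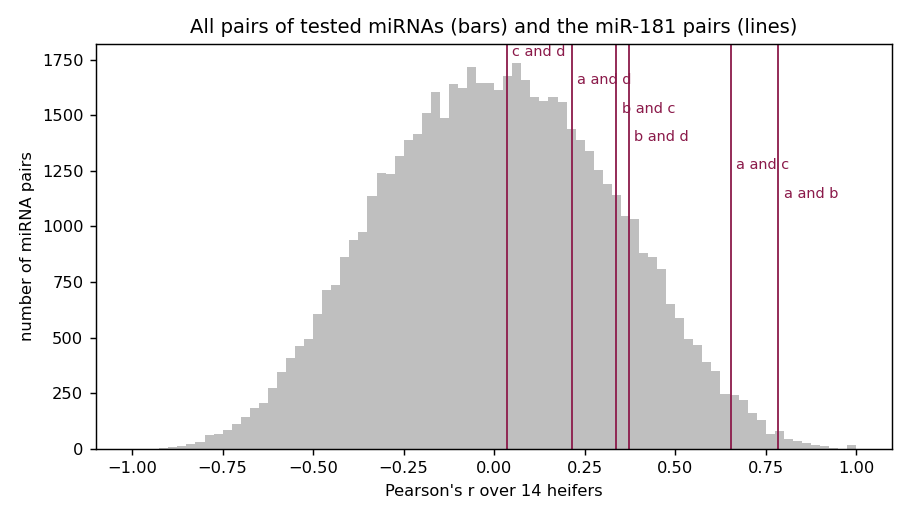
Number of miRNA pairs (vertical axis) by Pearson's r over 14 heifers (horizontal axis) for all 57970 pairs of the 341 miRNAs as grey bars, with the 6 miR-181 pairs as lines labelled by the letters of their members. The pairs of a with b and of a with c lie in the upper tail, and c with d lies at the centre.

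Relative to its abundant look-alike, each scarce paralogue varied widely. The count of bta-miR-181c per 1000 counts of bta-miR-181a was 0 in FH heifer 20, where bta-miR-181a had 31813 counts, and reached 3.94 in FH heifer 31 and 4.10 in SFH heifer 32. Its median was 1.45 in FH and 1.75 in SFH. The count of bta-miR-181d per 1000 counts of bta-miR-181b ran from 0.545 in FH heifer 29, where bta-miR-181b had 5509 counts, to 67.7 in SFH heifer 28, with a median of 26.7 in FH and 30.7 in SFH. Neither scarce paralogue was thus a fixed share of its look-alike, and the groups overlapped in both ratios. Whether some reads were counted on the wrong look-alike was not tested.

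**Figure D5:**
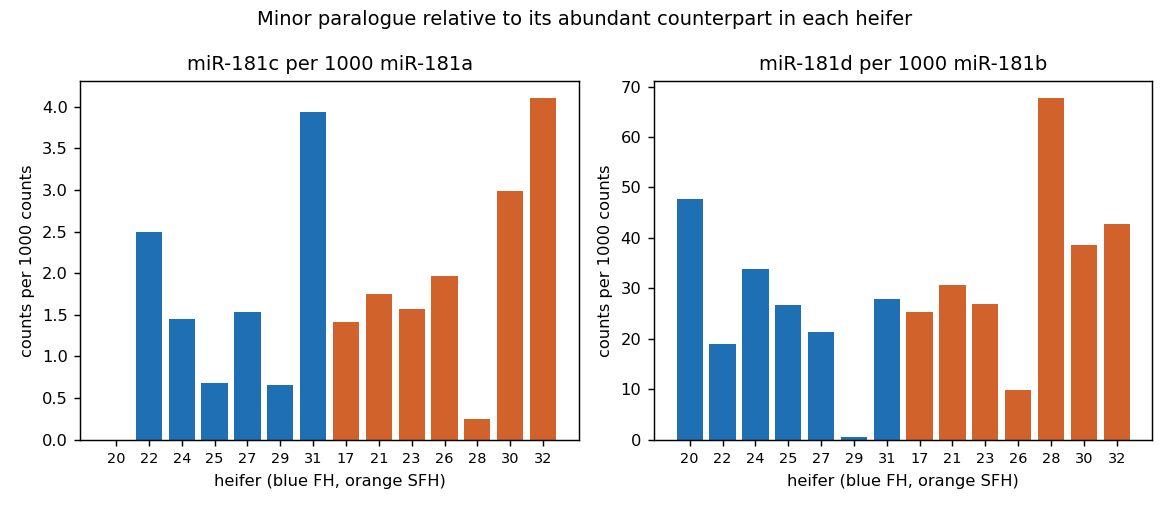
Counts of bta-miR-181c per 1000 counts of bta-miR-181a (left) and of bta-miR-181d per 1000 counts of bta-miR-181b (right), with 1 bar per heifer from 0 (blue FH, orange SFH) and heifer numbers on the horizontal axis. The left ratio runs from 0 to 4.10 and the right from 0.545 to 67.7, with high and low bars in both groups.

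The miRNAs outside the family whose levels were most like those of a member over the 14 heifers were mostly scarce. For bta-miR-181a they were bta-miR-10172-5p (r = 0.74, median 10.6 CPM), bta-miR-2344 (r = 0.70, median 3.18 CPM) and bta-miR-378d (r = 0.64, median 14.1 CPM). By r these were less like bta-miR-181a than bta-miR-181b was, but by rho bta-miR-10172-5p (0.85) and bta-miR-2344 (0.749) were not below bta-miR-181b (0.745). For bta-miR-181b they were bta-miR-2344 (r = 0.73), bta-miR-6517 (r = 0.67) and bta-miR-107 (r = 0.67), the last at a median of 485 CPM.

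For bta-miR-181c the most alike were bta-miR-2346 (r = 0.79), bta-miR-210 (r = 0.73 but rho = 0.35), a miRNA known to be induced by low oxygen, and bta-miR-2284x (r = 0.69). The miRNAs most like bta-miR-181d were bta-miR-11984 (r = 0.85), bta-miR-744 (r = 0.85) and bta-miR-6123 (r = 0.81). Their rank correlations with bta-miR-181d were only 0.16, 0.36 and 0.57. In SFH r was 0.29, -0.49 and 0.13 for these, against 0.95, 0.96 and 0.89 in FH, which holds heifer 29 with its 3 counts of bta-miR-181d. These correlations were not recomputed without heifer 29.

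Other miRNAs known from lymphocyte development were compared in the same fit. Of 13 such miRNAs, all retained, 0 passed the thresholds (3.81% of all tested did), 8 had a log2 fold change above 0 and 5 below, and the median was 0.05. The most abundant was bta-miR-150, which restrains the transcription factor MYB as lymphocytes mature, with a median of 67020 CPM and a log2 fold change of -0.08. The least abundant was bta-miR-34a, a target of p53, with a median of 9.17 CPM and a log2 fold change of 0.20. Only bta-miR-17-5p, of the miR-17-92 cluster that aids lymphocyte survival, had an unadjusted p-value under 0.05, as did 5.87% of all tested, with a log2 fold change of 0.43 ± 0.18 (SE; edgeR adjusted p = 0.661).

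The levels of the members were also set against the marker lists and the depth of the libraries. Over 32 relations the smallest adjusted permutation p was 0.886. The highest r was 0.52, between bta-miR-181b and the myeloid marker (permutation p = 0.0572; rho 0.51, permutation p = 0.0660; r = 0.56 without the 2 farthest heifers), and it was -0.19 within FH and 0.86 within SFH. With the lymphocyte markers r was 0.19 for bta-miR-181a and 0.33 for bta-miR-181b, and with the log2 total count it was 0.04 and -0.04. The median sum of the miR-142 arms, which white blood cells share, was 9920 CPM in FH (5237 to 17756 CPM). In SFH it was 14595 CPM (8001 to 20780.5 CPM), and the groups overlapped. The log2 fold change was 0.39 for bta-miR-142-5p (edgeR adjusted p = 0.890) and -0.15 for bta-miR-142-3p (edgeR adjusted p = 0.977). With this sum r was -0.003 for bta-miR-181a and 0.02 for bta-miR-181b. Within the groups bta-miR-181c also had wide values. Its r with the muscle list was -0.83 in FH and 0.10 in SFH, and with the myeloid marker -0.81 and 0.23. With the liver and epithelial list it was -0.12 in FH and 0.85 in SFH. The within-group values were not tested. Marker sums were on deposited CPM and the members on TMM-normalized CPM. These relations were chosen after the data were seen, and the part of cell composition in the levels of the family was not tested further.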

How the data were processed

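Small RNA libraries of PWBC from 7 FH and 7 SFH were analysed, with groups taken from the labels. The authors trimmed reads with Cutadapt and used miRDeep2 with ARS-UCD1.2 and miRBase. They deposited raw counts per mature miRNA and precursor, and CPM that equal the counts divided by the total over the 341 retained miRNAs. The submitters' processing notes name FastQC 0.11.9, MultiQC 1.12, cutadapt, edgeR 3.28.1 and DESeq2 1.26.0.

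A mature miRNA was kept as its entry with the highest total count, and those reaching a CPM of 1 in 7 or more heifers were tested. Counts were TMM-normalized and fitted with edgeR 4.0.16 (quasi-likelihood F-test; R 4.3.3) with group as the only term. DESeq2 1.42.0 and limma 3.58.1 were alternatives. Each member was also tested by exact two-sided permutation of the heifers (3432 arrangements) on log2(TMM-normalized CPM + 0.5). Paralogue levels were ordered by 16384 sign flips. Correlations used 100000 permutations, or all pairings within groups. Other steps ran in Python 3.11.15 (scipy 1.17.1, pandas 2.3.3, numpy 2.4.6), and the tests were tested on simulated data. No pair of libraries was identical, the labels name no batch, and heifers are separate animals without pairing. TMM factors were 0.817 to 1.08.

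The miRNAs named are the members, the 3 miRNAs most alike to each by r, the most and least abundant of the lymphocyte development list with any past the thresholds, and summed markers. bta-miR-17-5p was named after its value was seen. The members and lists were chosen with earlier results of these data known. Mature sequences and genome coordinates were not used here.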

Additional observations from a re-analysis of the deposited data

Results flagged for a closer look

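Within each group of 7 heifers, the highest and the lowest level of each member on the log2 scale were compared with the rest by the ratio of the gap to the range, and 3 animals stood apart. Of the FH heifers, 31 stood above the others for bta-miR-181a at 27012 CPM (ratio 0.600). SFH heifer 28 was below the other SFH for bta-miR-181c at 2.93 CPM (ratio 0.656). FH heifer 29 was below the other FH for bta-miR-181d at 0.666 CPM (ratio 0.698). FH heifer 20, which had no count of bta-miR-181c, was only just short of the critical value for it (ratio 0.567). The log2 level of that heifer is set by the constant added before the log, so its ratio depends on this choice. Chance marks about 1 in 20 such groups, and 8 groups were examined. Heifer 31 was not apart for bta-miR-181b, where the ratio was 0.0723. The cause was not tested.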

How the results depend on the processing

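The log2 fold change of each member stayed above 0 and short of the thresholds in all 86 alternatives run. bta-miR-181c and bta-miR-181d have no value under the filter of a CPM of at least 1 in all 14 heifers. Over the heifers left out, the fold change ran from 0.25 to 0.49 for bta-miR-181a, from 0.22 to 0.42 for bta-miR-181b, from 0.33 to 1.48 for bta-miR-181c and from 0.33 to 0.81 for bta-miR-181d. limma-voom gave 1.202 for bta-miR-181c and 1.33 for bta-miR-181d. The number of miRNAs past the thresholds was 13, and it was 23 with limma-voom, 126 of 614 without the CPM filter, 20 of 434 with every precursor entry kept, and 11 to 22 with a heifer left out (22 without FH heifer 24 and 20 without SFH heifer 26). The settings with 614 and 434 entries tested more than the 341.

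With group means removed, r of bta-miR-181a and bta-miR-181c was 0.61 (adjusted permutation p = 0.0744), and it ran from 0.59 to 0.78 with a heifer left out, short of the threshold without FH heifer 31 (0.60), SFH heifer 28 (0.59) or SFH heifer 30 (0.62). On the deposited CPM without logs, r of this pair was higher, at 0.83 (adjusted permutation p = 0.00048). r of bta-miR-181c and bta-miR-181d was -0.084 with group means removed and -0.23 to 0.29 with a heifer left out, below 0 without FH heifer 29 (-0.23), SFH heifer 30 (-0.03) or SFH heifer 32 (-0.01). On either side of the gap in bta-miR-181a, chosen after the data were seen and narrowing its range, r was 0.55 and -0.0092 with bta-miR-181b and 0.15 and 0.54 with bta-miR-181c, from 8 and 6 heifers. The log2 ratio of bta-miR-181d to bta-miR-181c was 0.61 to 1.42 with a heifer left out, also an alternative chosen after the data were seen, and only without FH heifer 29 did it pass. Where not stated, the cause was not tested. No paired analysis was possible because the heifers of the groups share no numbers. The counts of 0, 3 and 9 for bta-miR-181c or bta-miR-181d came from libraries of 2255323, 4506020 and 3077019 counts.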
